A study of Mus musculus with 2 samples.

Results

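Transcripts of 10 genes that encode cytokines known to activate natural killer (NK) cells, or chains of their receptors, were followed in leukocytes of mouse tumors. The set held the cytokine subunit genes *Il12a*, *Il12b*, *Il27* and *Ebi3*, the cytokine genes *Il15* and *Il18*, and the receptor chain genes *Il12rb2*, *Il15ra*, *Il2rb* and *Il18r1*. All 10 symbols were found among the 31053 genes of the count matrices, and all 10 had at least 1 unique molecular identifier (UMI, a tag of 1 transcript molecule) in each library. The tumors were grown in C57BL/6 hosts of 8 weeks from *Braf*-mutant melanoma cells that lacked *Ptgs* and with it the prostaglandin-making COX enzymes, and were taken on day 4. Hosts of the control group were untreated, and those of the NK cell-depleted group were given antibodies to NK1.1 (200 µg) and to asialo GM1 (30 µg) on days 0 and 2. Live cells were sorted for CD45, which marks leukocytes, from tumors pooled by group, so that each group was 1 library. Parental melanoma cells were added to both sorted samples. The titles name knockout tumor cells in both groups while the genotype field of both reads wild-type, and this conflict was not resolved.

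IL-12 is a pair of the *Il12a* and *Il12b* products and is known as a product of activated dendritic cells (DCs) and macrophages. It acts through *Il12rb1* and *Il12rb2* chains and the STAT4 protein, and IL-18 acts beside it through *Il18r1* and *Il18rap* chains to raise interferon-γ in NK cells. IL-15, which NK cells need to survive, is carried by *Il15ra* on the cell that makes it and is shown to *Il2rb* and *Il2rg* chains on the neighboring lymphocyte. IL-27 is a pair of the *Il27* and *Ebi3* products. The comparison therefore asked which cells held each ligand and each receptor chain, and whether these levels differed where NK cells had been removed.

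The control library kept 5292 cells with 24810009 UMIs and a median of 4170 UMIs per cell, and the NK cell-depleted library kept 4506 cells with 23245982 UMIs and a median of 4893. Cells were grouped into 12 classes by marker genes that excluded the 10 genes, and a class is called "-like" after its markers. Monocyte/macrophage-like cells were the most frequent, with 3487 control and 3167 NK cell-depleted cells in 11 clusters. NK-like cells numbered 545 and 1, and the single cell of the depleted library held 0 of the 10 NK markers. The 2 libraries shared 7 cell barcodes among called cells and 5 among kept cells. With 1 library per group no difference has a replicate check, so no p-value is given, and each range in parentheses is a 95% interval that covers counting error only. Levels are in CPM, where 10000 CPM is 1% of all UMIs of the same class in the same library, and they compare classes or libraries for a given gene, not genes with each other.

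The set lies on 10 chromosomes of the GRCm38 build, and all members are protein-coding. Promoter sequence in the RefSeq table matched 7 of them, with no entry for *Il15*, *Il2rb* and *Il27*. The 250 bases before the start site are shown for *Il12b*, *Il18* and *Il12rb2*, because the UMIs of these genes lay mostly in 3 different classes, migratory DC-like, monocyte/macrophage-like and NK-like cells. They were read 5′ to 3′ on the gene's strand at chr11:44399813-44400062 (+), chr9:50554450-50554699 (+) and chr6:67376189-67376438 (−), and they overlap no annotated exon. Capitals mark letters that match a searched motif.
Il12b: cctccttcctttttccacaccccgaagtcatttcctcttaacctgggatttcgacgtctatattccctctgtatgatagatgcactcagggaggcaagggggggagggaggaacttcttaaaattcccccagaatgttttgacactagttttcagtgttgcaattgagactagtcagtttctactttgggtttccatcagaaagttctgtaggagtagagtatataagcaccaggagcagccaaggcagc
Il18: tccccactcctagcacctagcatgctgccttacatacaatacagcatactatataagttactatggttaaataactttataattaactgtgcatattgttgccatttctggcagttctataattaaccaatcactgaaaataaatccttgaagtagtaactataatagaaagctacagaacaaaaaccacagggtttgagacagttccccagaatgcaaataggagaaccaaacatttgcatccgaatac
Il12rb2: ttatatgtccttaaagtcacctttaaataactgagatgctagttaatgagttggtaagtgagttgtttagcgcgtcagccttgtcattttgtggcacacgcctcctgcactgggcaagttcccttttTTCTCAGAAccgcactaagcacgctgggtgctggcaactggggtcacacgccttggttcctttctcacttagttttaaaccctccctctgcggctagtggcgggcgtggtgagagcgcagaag
The *Il12rb2* window held 1 GAS motif (TTCNNNGAA, the sequence that STAT dimers are known to bind), whose first base lies 123 bases before the start. Of 32851 RefSeq promoters cut to the same length, 7.02% hold this motif. The *Il12b* and *Il18* windows held neither this motif nor any other searched on both strands, and the *Il12rb2* window none of the others, which were the core of the interferon-stimulated response element (2.98% of promoters), the ETS-IRF composite element (2.30%), the NF-kB site (1.41%), the T-box site GGTGTGA (3.33%), AP-1 TGANTCA (6.75%) and PU.1 GAGGAAG (10.6%). A match describes letters only, and the absence of a match says nothing of the factor.

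In the control library the transcripts of the ligands and of *Il2rb*, *Il18r1* and *Il12rb2* lay mostly in different cells. Most *Il15ra* UMIs lay in monocyte/macrophage-like cells, as did most *Il15* UMIs. In the depleted library the 30 *Il12rb2* UMIs lay in DC-like (17) and monocyte/macrophage-like cells (13). Monocyte/macrophage-like cells held most UMIs of *Il15*, *Il18*, *Il27*, *Ebi3* and *Il15ra* in each library, migratory DC-like cells held most UMIs of *Il12b*, and NK-like cells held most UMIs of *Il2rb*, *Il18r1* and *Il12rb2* in the control library. These shares follow the number of cells and their depth as well as the level per class, which is why both are given below. Monocyte/macrophage-like cells held 77.9% of all UMIs in the control and 80.4% in the depleted library, and control NK-like cells 5.44%. Against these values, the monocyte/macrophage-like shares of *Il18* and *Il27* were higher in each library. Those of *Il15* and *Ebi3* lay near the class's share of all UMIs or below it. For *Il15ra* the share was 66.2% in the control and 79.0% in the depleted library.

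**Figure D1:**
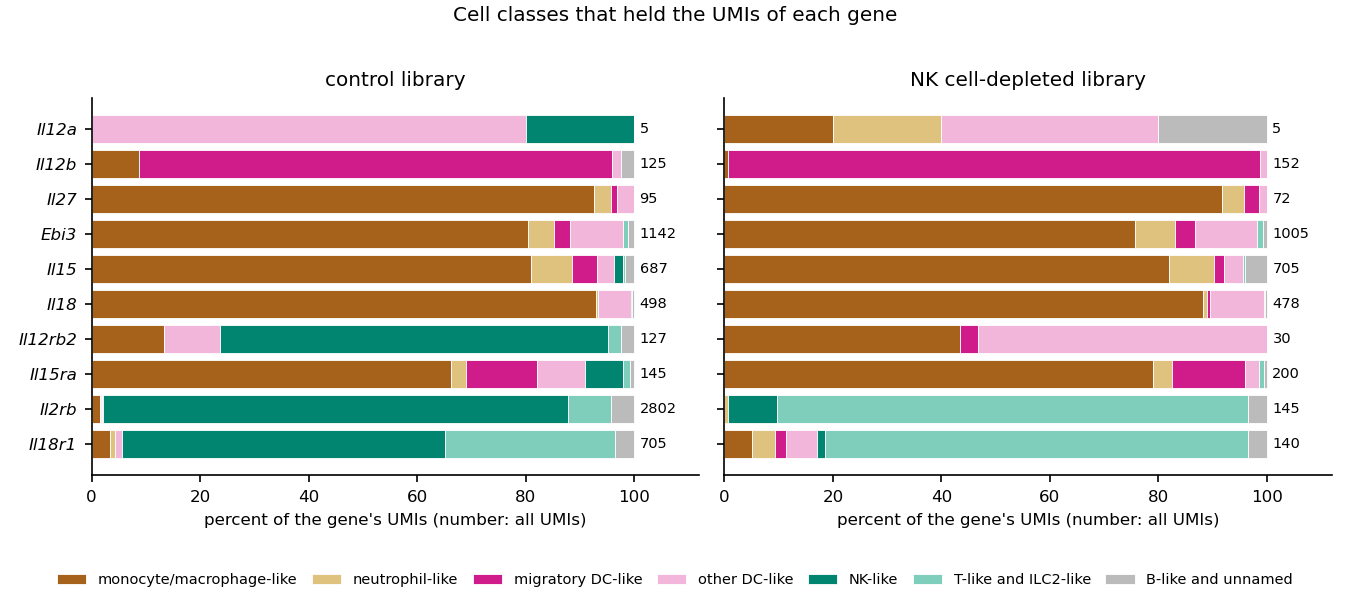
Share of each gene's UMIs held by each group of cell classes in the control (left) and NK cell-depleted library (right), in percent, with the gene's UMIs in the library at the end of the bar. NK-like cells filled 85.7% of the *Il2rb* bar of the control library, while migratory DC-like cells filled 87.2% and 98.0% of the *Il12b* bars.

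**Figure D2:**
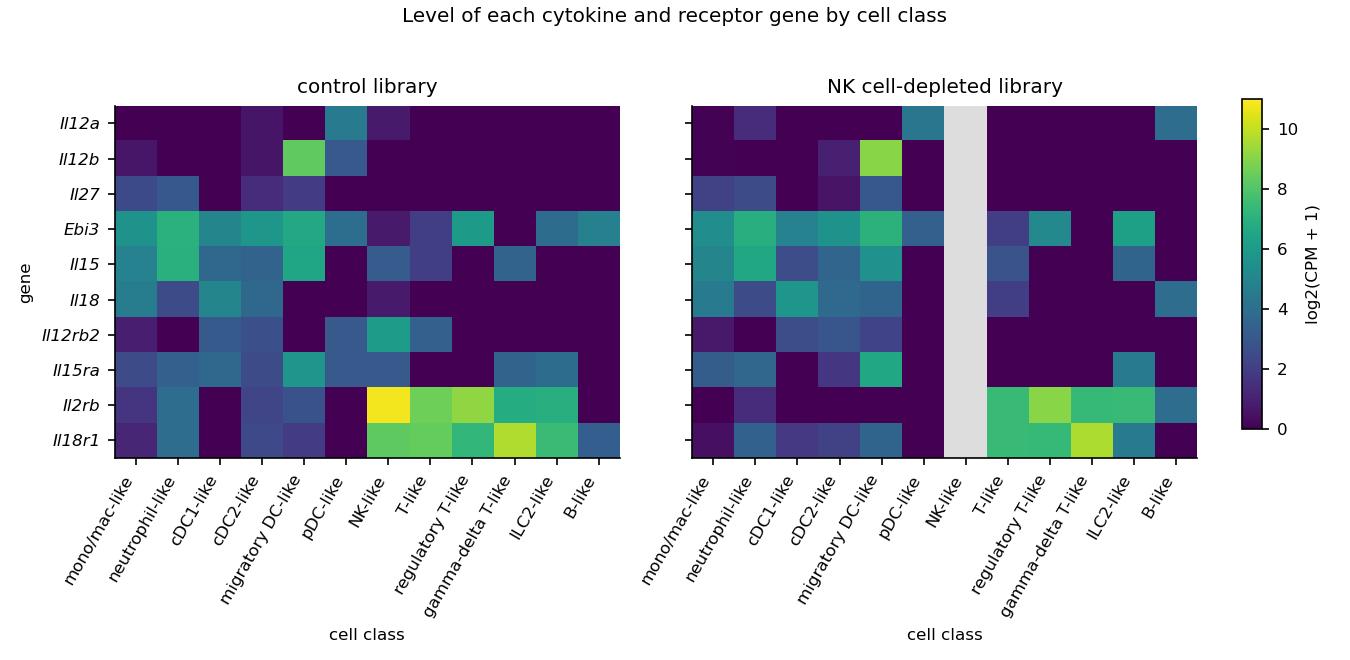
Level of each gene as log2(CPM + 1) in each named cell class of the control (left) and NK cell-depleted library (right), to be read along a row. The gray column marks the NK-like class of the depleted library, which had 1 cell. *Il12b* was highest in migratory DC-like cells of both libraries, and *Il2rb* was highest in control NK-like cells.

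*Il12b* (ENSMUSG00000004296, chromosome 11, 44400063 to 44414033, + strand) encodes the subunit that IL-12 shares with IL-23. Its UMIs numbered 125 in the control and 152 in the depleted library, of which 109 and 149 lay in migratory DC-like cells, DCs that carry markers of migration to lymph nodes such as *Ccr7* and *Fscn1*. These were shares of 87.2% (80.0 to 92.5) and 98.0% (94.3 to 99.6), held by a class of 60 and 50 cells. In that class 20 cells (33.3%, 21.7 to 46.7) and 14 cells (28.0%, 16.2 to 42.5) had an *Il12b* UMI. Among 545 NK-like cells, which are not known to make IL-12, 0 had one, which allows a share of up to 0.550%. Median depths were 5601.5 UMIs in migratory DC-like and 2140 in control NK-like cells. After thinning every cell to 2000 UMIs, the shares of migratory DC-like cells with *Il12b* were 22.8% of 57 and 22.2% of 45 cells, close to each other. The few UMIs elsewhere in the control library were 11 in 4 monocyte/macrophage-like cells, 3 in 1 cell of an unnamed cluster, and 1 each in type 2 conventional DC-like and plasmacytoid DC-like cells. The unnamed cluster had 60 control cells, and *Ptprc*, the gene of CD45, was low there at 28.0 CPM over both libraries.

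Within migratory DC-like cells *Il12b* was concentrated in a few cells. The 5 highest control cells held 37, 18, 12, 9 and 3 UMIs, together 72.5% of the class, and the 5 highest NK cell-depleted cells held 71, 18, 14, 11 and 9, together 82.6%. The level was 313 CPM (257 to 378) among control and 534 CPM (451 to 627) among depleted cells, a ratio of 0.587 (0.454 to 0.757). On the log2 scale this was -0.77, but it was -0.15 without the 5 cells richest in *Il12b* in each library. The upper limits on depth also decided the ratio. A control cell of 15980 UMIs and 3227 genes, just above the limit of 15000 UMIs, held 93 *Il12b* UMIs together with 71 of *Ccr7* and 0 of *Fscn1*. When cells were clustered without the upper limits, the class had 68 and 53 cells, and the levels were 498 CPM (432 to 571) and 497 CPM (420 to 584). The *Il12b* level of this class thus moved with single cells, while the shares of cells with the transcript had overlapping intervals.

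**Figure D3:**
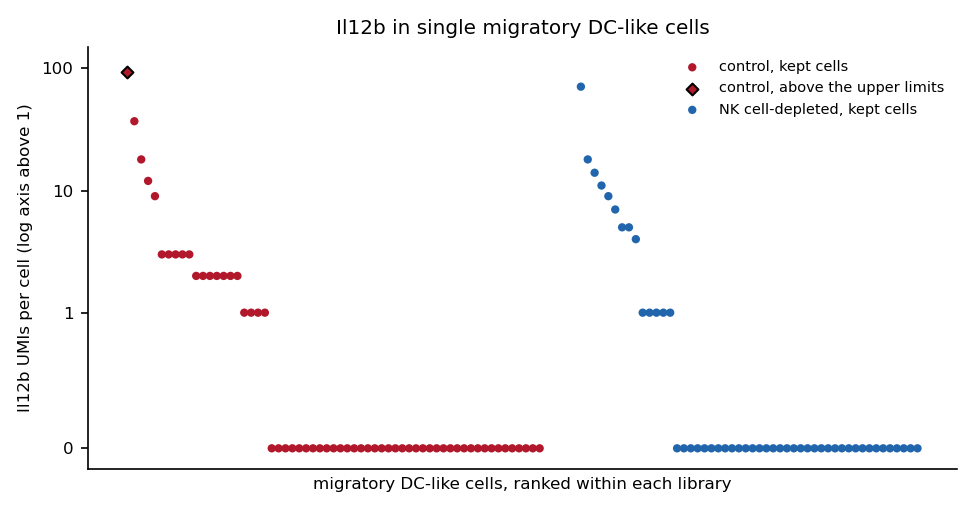
*Il12b* UMIs in each migratory DC-like cell, ranked within its library (red, control; blue, NK cell-depleted), on an axis that is logarithmic above 1 UMI. The diamond is the control cell with 93 UMIs that the upper limit on depth leaves out, and 40 control and 36 NK cell-depleted cells lie at 0.

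Migratory DC-like cells with and without *Il12b* were compared for other transcripts. Summed over markers of type 1 conventional DCs (cDC1), the lineage known for cross-presentation, the level was 2067 CPM in cells with *Il12b* and 890 CPM in those without in the control library. In the NK cell-depleted library the values were 1131 and 699 CPM. The migratory DC markers were 15119 against 11869 CPM, and 19967 against 11521 CPM. Markers of cDC2, the lineage known for priming CD4+ T cells, were lower in cells with *Il12b*, at 519 against 747 CPM and 625 against 719 CPM. *Ebi3* was 96.1 against 98.5 CPM in the control library and 217 against 96.9 CPM in the other, from 10 to 24 UMIs. *Il15* had 17 UMIs in the 20 control cells with *Il12b* and 14 in the 40 without, or 163 and 57.4 CPM, and 6 and 7 UMIs, or 72.2 and 35.7 CPM, in the depleted library. An *Il15* UMI was seen in 10 of 20 cells with *Il12b* (27.2% to 72.8%) and in 25.0% (12.7 to 41.2) of the others in the control library, and in 42.9% (17.7 to 71.1) and 19.4% (8.19 to 36.0) in the depleted library. For *Il15* the direction was the same in both libraries, and the intervals overlapped in each. Median depths of cells with and without *Il12b* were 4813 and 5925 UMIs in the control library, and 5551 and 4324 in the depleted library. No intervals were computed for the marker sums.

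*Il12a* (ENSMUSG00000027776, chromosome 3, 68690644 to 68698547, + strand), the gene of the other IL-12 subunit, was near the limit of detection. It had 5 UMIs in each library. Plasmacytoid DC-like cells, known as makers of type I interferon, held 3 of them in the control library (22.2 CPM, 4.58 to 64.9) and 2 in the depleted library, from classes of 26 and 19 cells. The other *Il12a* UMIs lay 1 each in an NK-like and a type 2 conventional DC (cDC2)-like cell of the control library, and in a monocyte/macrophage-like, a neutrophil-like and a B-like cell of the depleted library. None of the 5 cells with *Il12a* in each library held *Il12b*, which allows a joint share of up to 52.2% (exact binomial limit). *Il23a*, the partner of *Il12b* in IL-23, was seen in 31 and 20 cells and in 0 of the 27 and 17 cells with *Il12b*. Neutrophil-like cells held 28 of its 60 control UMIs and 27 of its 51 NK cell-depleted UMIs.

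*Il27* (ENSMUSG00000044701, chromosome 7, 126589010 to 126594941, − strand) was held by monocyte/macrophage-like cells, with 88 of 95 UMIs in the control and 66 of 72 in the depleted library. These were shares of 92.6% (85.4 to 97.0) and 91.7% (82.7 to 96.9). An *Il27* UMI was seen in 2.29% (1.82 to 2.85) and 1.89% (1.45 to 2.43) of the class, against 0 of 545 NK-like cells. Of the other classes, neutrophil-like cells held 3 UMIs in each library and cDC2-like cells 3 in the control library. Over both libraries the level was highest, at 12.3 CPM (7.61 to 18.8), in a monocyte cluster of 562 cells led by *Cxcl10*, *Ifit2* and *Ly6c2*. It was 6.99 CPM in monocytes led by *Ace*, and 1.56 CPM in macrophages led by *Retnla*.

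For the whole monocyte/macrophage-like class, *Il27* levels of 4.55 CPM (3.65 to 5.61) in the control and 3.53 CPM (2.73 to 4.49) in the depleted library differed within counting error, with a ratio of 1.29 (0.927 to 1.80). The 2 largest clusters of the class were different ones in the control and depleted libraries, so each cluster was also compared alone. In 3 of the 4 clusters with at least 20 UMIs, *Il27* was higher in the control library beyond counting error. The *Cxcl10* monocytes held 18 UMIs (19.2 CPM) and 3 UMIs (3.91 CPM), a ratio of 4.90 (1.43 to 26.0). Macrophages led by *Ccl8* and *Lyve1* held 23 and 14 UMIs (7.53 and 2.70 CPM), a ratio of 2.79 (1.38 to 5.86). Macrophages led by *Pf4* and *Arg1* held 20 and 2 UMIs (4.93 and 0.876 CPM), a ratio of 5.63 (1.37 to 49.7). In the monocytes led by *Gm9733* and *Vcan* the levels were 6.84 and 6.96 CPM, from 6 and 18 UMIs. The pooled ratio was smaller than those of the first 3 clusters, and the last cluster held 169 control and 472 NK cell-depleted cells. The rest of the 11 clusters had fewer UMIs, and none differed beyond counting error. Most of them were lower in the control library, such as the *Ace* monocytes with 3 and 13 UMIs (5.49 and 7.46 CPM). Macrophages led by *Gpnmb*, with 7 and 4 UMIs, were among those higher. The share of all genes past counting error in single clusters was not computed.

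*Ebi3* (ENSMUSG00000003206, chromosome 17, 55952640 to 55957022, + strand), whose product pairs with that of *Il27*, was the more widely spread subunit gene. Monocyte/macrophage-like cells held 919 of 1142 control UMIs, or 80.5% (78.1 to 82.7), and 760 of 1005 NK cell-depleted UMIs, or 75.6% (72.8 to 78.2). It was seen in 20.6% and 19.3% of these cells but in 1 of 545 NK-like cells. By level, the neutrophil-like class (130 and 123 CPM, from 55 and 75 UMIs) and the migratory DC-like class (97.8 and 133 CPM, from 34 and 37 UMIs) stood above monocyte/macrophage-like cells (47.6 and 40.7 CPM). cDC2-like cells followed with 100 and 102 UMIs (55.1 and 48.7 CPM). Regulatory T-like cells, which are known to express *Ebi3*, held 9 and 3 UMIs (62.6 CPM, 28.6 to 119, and 35.0 CPM, 7.21 to 102). Lower counts lay in cDC1-like cells (8 and 11), ILC2-like cells (7 in the depleted library), B-like cells (3 in the control library) and unnamed clusters, of which an eosinophil-marked cluster held 3 and 4 and a cluster of mixed NK and macrophage markers held 5 in the control library. The monocyte/macrophage-like level was 1.17-fold (1.06 to 1.29) higher in the control library, and 3 of 11 clusters were higher there beyond counting error and none lower. In the same cells, *Ebi3* was seen in 31.2% (21.3 to 42.6) of control cells with *Il27* and 20.3% (19.0 to 21.7) of those without. In the depleted library the values were 18.3% (9.52 to 30.4) and 19.3% (17.9 to 20.7), and the intervals overlapped in both libraries. Control cells with *Il27* were also deeper than those without, with medians of 6309 and 5023 UMIs.

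*Il15* (ENSMUSG00000031712, chromosome 8, 82331632 to 82403222, − strand) was carried by myeloid cells. Monocyte/macrophage-like cells held 556 of 687 control UMIs and 578 of 705 NK cell-depleted UMIs, or 80.9% (77.8 to 83.8) and 82.0% (78.9 to 84.8). It was seen in 13.4% and 14.7% of these cells and in 1.83% of NK-like cells (11 UMIs, 8.16 CPM). Levels in monocyte/macrophage-like cells were 28.8 CPM (26.4 to 31.3) and 30.9 CPM (28.5 to 33.6), a ratio of 0.930 (0.827 to 1.05), so that *Il15* did not differ there beyond counting error. By cluster the level was highest in the *Cxcl10* monocytes, at 53.3 CPM over both libraries. Of 10 clusters with at least 20 UMIs, 2 were lower in the control library beyond counting error and none higher. These were macrophages led by *Spint1* and *Htra3*, with 12.6 and 25.3 CPM (0.501, 0.265 to 0.956), and macrophages led by *Slc7a2* and *Dcstamp*, with 15.4 and 25.1 CPM (0.611, 0.389 to 0.961).

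By level, *Il15* was higher in rarer classes. Neutrophil-like cells held 53 and 58 UMIs (125 CPM, 93.6 to 163, and 95 CPM, 72.2 to 123). An unnamed cluster of 49 and 36 cells led by *Gm5483*, *Hcar2* and *Cxcl3* held 9 and 24 UMIs, or 151 CPM (69.2 to 287) and 489 CPM (313 to 727). It was the class with the highest *Il15* level in each library, but its control interval covered that of neutrophil-like cells. Its ratio of control over depleted was 0.309 (0.127 to 0.690). When cells were clustered without the upper limits on depth, a cluster led by the same genes was named neutrophil-like. Migratory DC-like cells held 31 and 13 UMIs, or 89.1 CPM (60.6 to 127) and 46.6 CPM (24.8 to 79.6), with a ratio of 1.91 (0.973 to 3.99) that included 1. cDC2-like cells held 19 and 23 UMIs and cDC1-like cells 3 in the control library. The direction of the difference thus varied among classes, and of the classes it passed counting error in the unnamed cluster alone.

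*Il18* (ENSMUSG00000039217, chromosome 9, 50554827 to 50581840, + strand) encodes a cytokine that caspase-1 cuts to its active form. Monocyte/macrophage-like cells held 463 of 498 control UMIs and 422 of 478 NK cell-depleted UMIs, or 93.0% (90.4 to 95.1) and 88.3% (85.1 to 91.0). They carried it in 11.3% and 11.4% of cells, against 1 of 545 NK-like cells (0.183%). cDC1-like cells had the highest level, with 8 and 21 UMIs in classes of 34 and 52 cells (31.1 CPM, 13.4 to 61.2, and 53.8 CPM, 33.3 to 82.3). In the control library this did not stand above the 24.0 CPM (21.8 to 26.2) of monocyte/macrophage-like cells, and in the depleted library it did, against 22.6 CPM (20.5 to 24.8). cDC2-like cells held 22 and 26 UMIs (12.1 and 12.4 CPM), and 3 UMIs each lay in migratory DC-like and neutrophil-like cells of the depleted library. Over monocyte/macrophage-like clusters the *Il18* level ran from 6.59 CPM in macrophages led by *Slc7a2* to 46.3 CPM in the *Cxcl10* monocytes.

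For the whole class *Il18* did not differ between the libraries beyond counting error, with a ratio of 1.06 (0.928 to 1.21). Within clusters it was higher in the control library in 8 of 10 with at least 20 UMIs, and beyond counting error in 2 of them. These were the *Ccl8* and *Lyve1* macrophages, with 44.5 against 29.3 CPM (1.52-fold, 1.20 to 1.93), and the *Gm9733* and *Vcan* monocytes, with 55.8 against 30.9 CPM (1.81-fold, 1.24 to 2.61). Giving each cluster its share of the UMIs of both libraries as a weight, the same in each library, moved the log2 ratio from 0.09 to 0.37, and with all clusters weighted equally it was 0.18. *Casp1*, the gene of caspase-1, had 597 and 570 UMIs in the class, a ratio of 1.01 (0.902 to 1.14), and *Il18bp*, which encodes a soluble inhibitor of IL-18, had 287 and 244, a ratio of 1.14 (0.956 to 1.35).

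**Figure D4:**
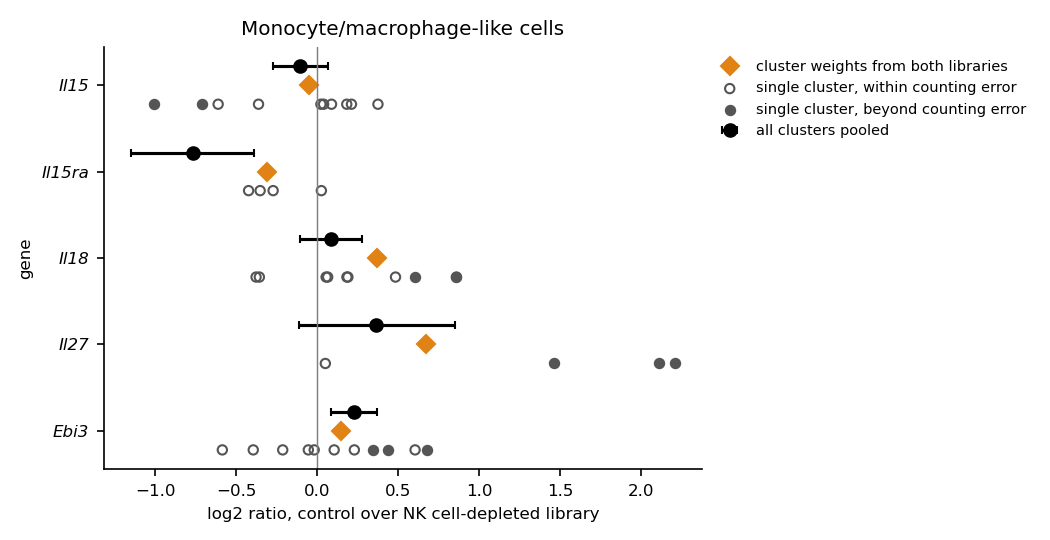
Log2 ratio of control over NK cell-depleted level of the ligand genes and *Il15ra* in monocyte/macrophage-like cells. Black points with 95% counting intervals pool all clusters, orange diamonds weight each cluster by its UMIs in both libraries together, and small circles are single clusters with at least 20 UMIs, filled where they lie beyond counting error. *Il27* lies right of 0 beyond counting error in 3 of its 4 clusters, and *Il15ra* moves from -0.76 pooled to -0.31 with these weights.

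*Il15ra* (ENSMUSG00000023206, chromosome 2, 11705290 to 11734317, + strand), the chain that presents IL-15, had most of its UMIs in the class that held most *Il15* UMIs. Monocyte/macrophage-like cells held 96 of 145 control UMIs and 158 of 200 NK cell-depleted UMIs, and migratory DC-like cells 19 and 27. By level, migratory DC-like cells led with 54.6 CPM (32.9 to 85.3) and 96.7 CPM (63.7 to 141), against 4.97 CPM (4.02 to 6.07) and 8.46 CPM (7.19 to 9.88) in monocyte/macrophage-like cells. The share of monocyte/macrophage-like cells with an *Il15ra* UMI was 2.64% (2.13 to 3.23) in the control library, near the 1.83% (0.883 to 3.35) of NK-like cells, which held 10 UMIs (7.41 CPM, 3.56 to 13.6). Counts in other classes were low, with 9 and 5 in cDC2-like, 4 and 7 in neutrophil-like, 3 in control cDC1-like and 0 of 57 in B-like cells of the control library.

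In migratory DC-like cells *Il15* and *Il15ra* were often found in the same cell. Of 20 control cells with *Il15*, 9 (45.0%, 23.1 to 68.5) had *Il15ra*, against 10.0% (2.79 to 23.7) of the 40 without. Of 13 NK cell-depleted cells with *Il15*, 6 (46.2%, 19.2 to 74.9) had it, against 18.9% (7.96 to 35.2) of the 37 without. Median depths did not favor the cells with *Il15*, at 5022.5 against 5925 and 5046 against 5311 UMIs. In monocyte/macrophage-like cells the shares were 3.21% against 2.55% in the control library, and 7.54% (5.31 to 10.3) against 3.59% (2.92 to 4.36) in the depleted library.

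In monocyte/macrophage-like cells *Il15ra* was lower in the control library, with a ratio of 0.588 (0.451 to 0.762). Of the 8 members with at least 20 UMIs in this class, *Il15ra* alone was at least 1.5-fold lower in the control library, as were 3.73% of the 11838 genes with as many UMIs. With cluster weights from both libraries the log2 ratio was -0.31 in place of -0.76, and with all clusters weighted equally -0.19. Of 4 clusters with at least 20 UMIs, 3 were lower in the control library and none beyond counting error. *Il15ra* was highest in the *Gm9733* and *Vcan* monocytes (14.1 CPM over both libraries), a cluster that held 169 control and 472 NK cell-depleted cells. In migratory DC-like cells the ratio was 0.565 (0.297 to 1.05).

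*Il2rb* (ENSMUSG00000068227, chromosome 15, 78479256 to 78495271, − strand), the signaling chain that IL-15 and IL-2 share, was the gene of the set most tied to NK-like cells. They held 2400 of its 2802 control UMIs, or 85.7% (84.3 to 86.9), and it was seen in 515 of 545 cells, or 94.5% (92.2 to 96.3). Their level was 1779 CPM (1709 to 1852). None of 57 B-like cells of the control library had an *Il2rb* UMI, which allows a share of up to 5.26%, at a median depth of 1601 UMIs against 2140. After thinning to 2000 UMIs the share of NK-like cells was 94.7% of 304 cells. In the library total *Il2rb* had 2802 UMIs in the control and 145 in the depleted library, 18.1-fold (15.3 to 21.5) more per UMI. The single NK-like cell of the depleted library held 13 of the 145.

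Other lymphocytes carried *Il2rb* at lower levels. Regulatory T-like cells held 82 and 45 UMIs, or 570 CPM (454 to 708) and 524 CPM (383 to 702), with a ratio of 1.09 (0.747 to 1.60). T-like cells held 122 and 57 UMIs, or 382 CPM (318 to 457) and 174 CPM (132 to 226). γδ T-like cells held 11 and 8 UMIs and ILC2-like cells 9 and 16. The unnamed cluster of mixed NK and macrophage markers held 118 UMIs in 21 control cells and 4 in 5 NK cell-depleted cells. Neutrophil-like and cDC2-like cells of the control library held 6 and 7 UMIs.

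*Il18r1* (ENSMUSG00000026070, chromosome 1, 40465552 to 40500854, + strand), the chain that binds IL-18, was shared by NK-like and T lineage cells. NK-like cells held 420 of 705 control UMIs, or 59.6% (55.8 to 63.2), and it was seen in 261 of 545 cells, or 47.9% (43.6 to 52.2). By level, γδ T-like cells were highest in each library, with 80 and 38 UMIs, or 818 CPM (648 to 1017) and 790 CPM (559 to 1084), against 311 CPM (282 to 343) in NK-like cells. An *Il18r1* UMI was found in 32 of 40 and 16 of 17 γδ T-like cells, and in 1 of 57 B-like cells of the control library. The 2 libraries did not differ in γδ T-like cells beyond counting error (1.04, 0.695 to 1.57). Regulatory T-like cells held 22 and 14 UMIs (153 and 163 CPM), T-like cells 106 and 55 (332 and 168 CPM) and ILC2-like cells 13 in the control library. The mixed NK and macrophage cluster held 18 and 5, the eosinophil-marked cluster 5 in the control library, neutrophil-like cells 6 in each library, cDC2-like cells 8 and 7, and the migratory DC-like class of the depleted library 3.

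*Il18rap*, the second chain of the IL-18 receptor, had a different spread from *Il18r1*. NK-like cells held 629 of its 1166 control UMIs (466 CPM) and were positive in 348 of 545 cells. Of NK-like cells with *Il18r1*, 69.3% (63.4 to 74.9) had *Il18rap*, against 58.8% (52.8 to 64.6) of those without. Neutrophil-like cells held 95 and 149 *Il18rap* UMIs (224 and 244 CPM), where *Il18r1* had 6 and 6 (14.1 and 9.83 CPM). γδ T-like cells with *Il18r1* had an *Il18rap* UMI in 6 of 32 control and 6 of 16 NK cell-depleted cells.

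*Il12rb2* (ENSMUSG00000018341, chromosome 6, 67291318 to 67376188, − strand), the chain whose presence is known to set the response to IL-12, had few UMIs. NK-like cells held 91 of 127 control UMIs, or 71.7% (63.0 to 79.3), in 83 of 545 cells (15.2%, 12.3 to 18.5), at 67.5 CPM (54.3 to 82.8). None of 57 B-like cells had 1. In the depleted library 30 UMIs were left, a ratio of 3.97 (2.65 to 6.12) between the library totals. Without NK-like cells the 2 libraries held 36 and 30 *Il12rb2* UMIs, a ratio of 1.19 (0.712 to 2.00). cDC2-like cells held 10 and 14 UMIs, or 5.51 CPM (2.64 to 10.1) and 6.68 CPM (3.65 to 11.2), which stood above 0.880 CPM (0.513 to 1.41) and 0.696 CPM (0.370 to 1.19) in monocyte/macrophage-like cells, from 17 and 13 UMIs. The cDC2-like class also carried monocyte and macrophage markers. Monocyte and cDC2 markers summed to 4876 and 3293 CPM in its cluster led by *F13a1*, and to 1965 and 4157 CPM in that led by *Mir155hg*. Cells with at least 3 macrophage markers made up 6.74% to 67.4% of its clusters. T-like cells and the mixed NK and macrophage cluster held 3 each in the control library. *Il12rb1*, the partner chain, had 40 of 96 control UMIs in NK-like cells and was seen in 4 of the 83 cells with *Il12rb2*.

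**Figure D5:**
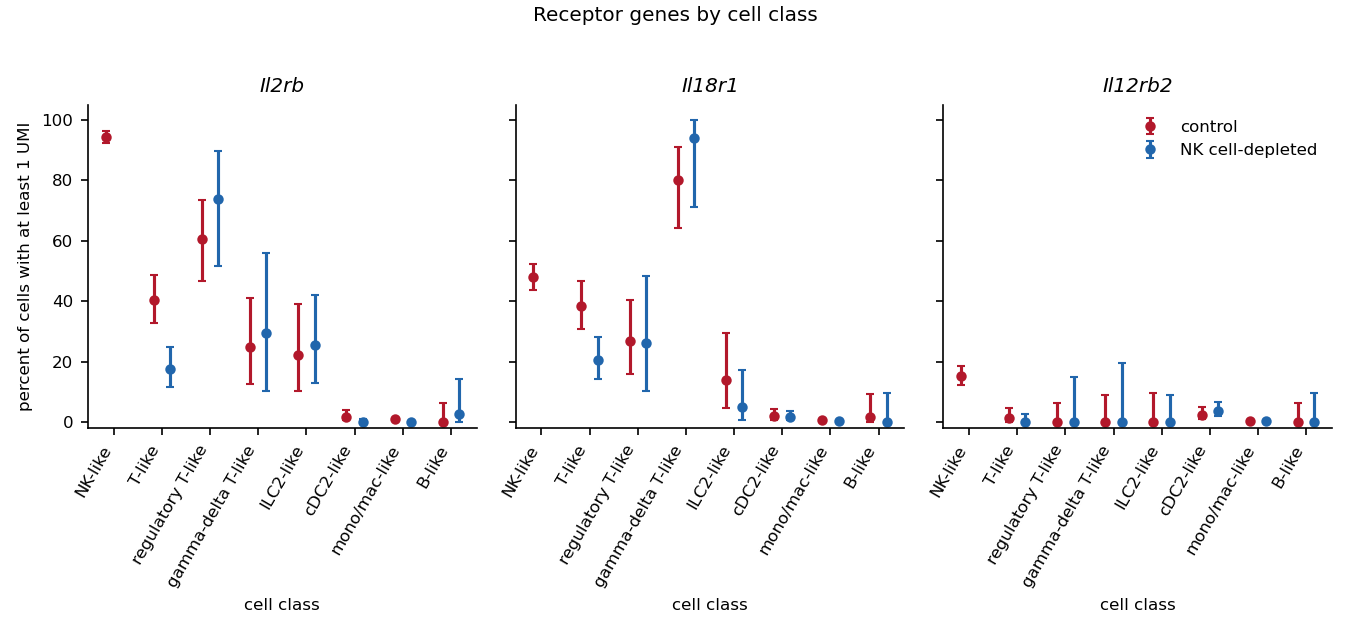
Percent of cells with at least 1 UMI of *Il2rb*, *Il18r1* and *Il12rb2* in 8 classes of the control (red) and NK cell-depleted library (blue), with 95% binomial intervals. Classes of fewer than 10 cells are left out, so NK-like cells appear for the control library. *Il2rb* was seen in 94.5% of NK-like cells, *Il18r1* in 80.0% and 94.1% of γδ T-like cells, and *Il12rb2* in 15.2% of NK-like cells.

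NK-like cells varied in how many of these 3 receptor genes were seen. Of 545 cells, 11 had none, 250 had 1, 243 had 2 and 41 had all 3. Median depth went with that number, at 1389, 2005, 2253 and 2509 UMIs. *Ifng*, the interferon-γ gene that IL-12 and IL-18 are known to induce, was seen in 27.3% (6.02 to 61.0), 31.6% (25.9 to 37.8), 24.7% (19.4 to 30.6) and 17.1% (7.15 to 32.1) of these cells, with overlapping intervals. *Il12rb2* cells had *Il18r1* in 50.6% (39.4 to 61.8) of cases and other NK-like cells in 47.4% (42.8 to 52.1).

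In T-like cells both receptor genes with enough UMIs were at least 1.5-fold higher in the control library, *Il2rb* with a ratio of 2.19 (1.59 to 3.06) and *Il18r1* with a ratio of 1.97 (1.41 to 2.79). Of the 4670 genes with at least 20 UMIs in this class, 16.2% were as much higher and 12.0% as much lower in the control library. The class held 3 clusters in different proportions. A cluster led by *Ccl5*, *Ifng* and *Klrc2* had 107 control and 29 NK cell-depleted cells, and 1 led by *Gm14085*, *Ccr7* and *Actn1* had 28 and 92. In the *Ccl5* cluster *Il2rb* was 510 CPM (422 to 611) and 559 CPM (405 to 753), and *Il18r1* was 427 CPM (347 to 520) and 559 CPM (405 to 753). In the *Ccr7* cluster *Il2rb* had 1 and 13 UMIs (16.2 and 59.3 CPM), and *Il18r1* had 3 and 10 (48.7 and 45.6 CPM). The third cluster, led by *Sytl3*, had 18 and 21 cells and few UMIs, 4 and 1 of *Il2rb* (144 and 32.6 CPM) and 5 and 2 of *Il18r1* (179 and 65.2 CPM). In none of the 3 clusters did either gene differ beyond counting error. With cluster weights from both libraries the log2 ratios turned from 1.13 to -0.17 for *Il2rb* and from 0.97 to -0.28 for *Il18r1*, and with the clusters weighted equally they were 0.04 and -0.03. Whether the numbers of cells in the clusters account for the pooled difference was not tested. Summed NK markers of T-like cells were 314 CPM in the control library, with *Ncr1* and *Klra8* of 10 at 0, and 101 CPM in the depleted library, with 5 of 10 at 0, and their part in the result was not tested.

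Among the 8 members with at least 20 UMIs in monocyte/macrophage-like cells, *Il2rb* and *Il18r1* were at least 1.5-fold higher in the control library, as were 8.24% of 11838 genes. *Il12b*, with fewer UMIs, had 11 and 1 (10.6-fold, 1.55 to 458), the 11 from 4 cells. These counts leave out 24 *Il12b* UMIs of 1 NK cell-depleted monocyte/macrophage-like cell above the upper limits on depth. Control cells of the class above those limits held 0. The *Il12b* ratio of this class thus depended on the upper limits. *Il2rb* had 44 and 0 UMIs, of which the latter allows a level of up to 0.161 CPM against 2.28 CPM (1.65 to 3.06). *Il18r1* had 24 and 7 UMIs, a ratio of 3.32 (1.39 to 9.11). Summed NK markers moved the same way in this class, at 24.4 CPM with 10 of 10 seen in the control library and 3.75 CPM with 3 of 10 seen in the depleted library, where *Ncr1*, *Klre1*, *Klra8*, *Klra7*, *Eomes*, *Gzma* and *Prf1* were at 0. Of the 34 control cells with *Il2rb*, 12 (35.3%) had an NK marker, against 5.56% of the other cells, and 26 of the 44 UMIs lay in cells without one. The class held 28.9 *Il2rb* UMIs per 100 of *Gzma*, a granzyme gene, and NK-like cells held 31.2. For *Il18r1* the 2 values were 15.8 and 5.45, and for *Il12rb2* 11.2 and 1.18. The part of RNA from NK cells in these values was not tested.

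In migratory DC-like cells 4 members had at least 20 UMIs. *Il15* was at least 1.5-fold higher in the control library, where 11.3% of 3898 genes were, and *Il12b* and *Il15ra* were at least 1.5-fold lower, where 16.8% were. Of these, *Il12b* alone passed counting error. *Ebi3* had a ratio of 0.738 (0.449 to 1.21). The median log2 ratio of the 4 members was -0.60, beside -0.08 over all genes of the class.

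Of the 23 listed genes that work with the set, 21 had at least 20 UMIs in monocyte/macrophage-like cells. *Stat4*, the transducer of IL-12 signals, alone was at least 1.5-fold higher in the control library (118 and 66 UMIs, a ratio of 1.73, 1.27 to 2.37), and none was as much lower. Of the 11838 genes with at least 20 UMIs in this class, 8.24% were as much higher and 3.73% as much lower. Smaller differences beyond counting error were lower in the control library for 7 genes, *Tyk2*, *Il2rg*, *Jak1*, *Myd88*, *Irak4*, *Il6st* and *Stat3*. Among these *Myd88*, the adaptor of IL-18 and Toll-like receptors, had 1541 and 2227 UMIs (0.669, 0.627 to 0.714), and *Tyk2*, a kinase of the IL-12 receptor, 655 and 946 (0.670, 0.605 to 0.741). *Il18rap* had 228 and 150 UMIs (1.47, 1.19 to 1.82), and with *Stat4* made 2 genes higher there beyond counting error. The share of all genes past counting error in this class was not computed, so the counts of genes beyond counting error have no background. The median log2 ratio was 0.28 over the 8 members, -0.06 over the 21 partner genes and -0.01 over all 11838 genes. A limit of 50 UMIs left out *Il2rb*, *Il18r1* and *Il12rb2*. The medians were then 0.09 over 5 members, -0.15 over 18 partner genes and -0.02 over 10719 genes.

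In the library totals, the receptor chain genes of NK-like cells and several of their partners were higher in the control library. The control over depleted ratio was 4.72 (3.93 to 5.70) for *Il18r1*, 2.90 (1.92 to 4.50) for *Il12rb1*, 2.41 (2.07 to 2.81) for *Stat4* and 23.8 (14.5 to 42.0) for *Ifng*. *Il2rg*, the chain common to IL-2 and IL-15 receptors, was level at 2075 and 1944 UMIs (1.0, 0.940 to 1.06), with 17.8% of control UMIs in NK-like and 56.0% in monocyte/macrophage-like cells. Of the cytokine genes, *Il12b* differed beyond counting error in the totals (0.771, 0.603 to 0.983), which leave out the 93 control and 24 NK cell-depleted UMIs of 2 cells above the upper limits on depth, while *Il15* (0.913, 0.821 to 1.02), *Il18* (0.976, 0.859 to 1.11), *Il27* (1.24, 0.901 to 1.70) and *Ebi3* (1.06, 0.977 to 1.16) did not. In such totals fewer cells of a class and less RNA per cell cannot be told apart. Without NK-like cells, *Il2rb* had 402 and 132 UMIs (3.02, 2.47 to 3.70), and *Il18r1* 285 and 138 (2.05, 1.66 to 2.53). For *Il2rb* these include 118 and 4 UMIs of the mixed NK and macrophage cluster and 44 and 0 of monocyte/macrophage-like cells. T-like and ILC2-like cells together held 224 and 126. For *Il18r1* the 3 pairs were 18 and 5, 24 and 7, and 221 and 109. The part of NK cells or their RNA outside the NK-like class was not tested.

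Genes with the most similar pattern were named by the Pearson correlation of log2(CPM + 5) over 24 class-by-library values, which share 2 libraries and their depths. Marker genes of the classes could be among them. *Il12b* was most like *Cacnb3* (r = 0.97), *Zmynd15* (0.94) and *Eno3* (0.94). *Il2rb* was most like *Sytl2* (0.95), *Trbc1* (0.94) and *Gm19585* (0.93), *Il18r1* like *Gprin3* (0.96), *Thy1* (0.92) and *Zap70* (0.92), and *Il12rb2* like *Samd3* (0.87), *Xcl1* (0.86) and *Klre1* (0.84). The myeloid patterns were those of *Ostf1* (0.92), *Il1rn* (0.90) and *Tlr13* (0.90) for *Il15*, *Naaa* (0.85), *Tifab* (0.84) and *Cyp27a1* (0.83) for *Il18*, and *Piwil2* (0.89), *Dram1* (0.86) and *Eid3* (0.84) for *Il27*. *Ebi3* was most like *Vamp8* (0.82), *Nfkbie* (0.81) and *Zfp36* (0.81), and *Il15ra* like *Loxl3* (0.76), *Pcgf5* (0.74) and *Relb* (0.73). Of these, *Cacnb3*, *Trbc1*, *Klre1*, *Naaa* and *Relb* were on the marker lists that named the classes. *Il12a*, with 10 UMIs in all, was left out.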

How the data were processed

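The authors deposited raw UMI counts per gene and cell of each library (Chromium 3′ chemistry), made on the mm10 build with Cell Ranger, whose release is 3.0.2 in the file headers and a later one in the study's methods, after its cell calling. Their log2(CPM + 1) table of the same cells was not used. The authors' filter was applied to the counts: UMIs from 500 to 15000, genes from 200 to 4000 and mitochondrial UMIs of no more than 10%, which kept 9798 of 11651 cells. Groups came from the sample titles. The 10 genes and the lists of markers and partner genes were chosen with earlier results of these data known.

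Cells were clustered with scanpy 1.11.5, scikit-learn 1.9.0, igraph 0.11.9 and leidenalg 0.10.2 on 15 principal components of log2(CPM + 1) of 2000 variable genes, with 20 neighbors and a resolution of 1. The 10 genes and their partners were left out of the clustering. T and DC clusters were divided again with 10 components. A cluster was named from marker lists among its first 50 genes by fold (5 CPM added), seen in at least 10% of its cells, with at least 3 markers, and otherwise stayed unnamed. The thresholds of naming were set after the clusters were seen, and classes may differ from the study's because they were rebuilt. The 2 largest monocyte/macrophage-like clusters were those led by *Gpnmb* and by *Pf4* in the control library, and by *Ccl8* and by *Gm9733* in the depleted library. Scrublet called 0 control and 3 NK cell-depleted cells as doublets, so it has not worked here, and all cells were kept, with 2 stricter treatments as alternatives.

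UMIs were summed per class and library. Sums carry exact Poisson intervals, shares exact (Clopper-Pearson) binomial intervals and ratios the exact conditional binomial interval, all at 95% and for counting error only (scipy 1.17.1). A count of 0 allows 3 counts. Log2 ratios set control above depleted after adding 0.5 UMI to both sums. Background counts of genes past 1.5-fold used those with 20 UMIs or more in all. All 10 genes were named wherever a class held at least 3 UMIs in a library, and the 3 most similar genes were named among those with at least 200 UMIs over classes of at least 30 cells. Gene positions are from GENCODE and promoters from RefSeq, both on GRCm38. The ratio computation was tested on simulated data. Alternatives changed the cell filter, clusters, doublet treatment, depth, scaling and weights.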

Additional observations from a re-analysis of the deposited data

How the results depend on the processing

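No paired analysis was possible because each group was 1 library. For 27 results, 200 recomputed values stayed within the counting interval of the reported value, 52 moved beyond it and 4 changed sign. Weighting each cluster by its UMIs in both libraries turned the log2 ratios of T-like cells to -0.17 (*Il2rb*) and -0.28 (*Il18r1*), and moved those of monocyte/macrophage-like cells to -0.31 (*Il15ra*) and 0.37 (*Il18*). With all clusters weighted equally, the ratios of T-like cells were 0.04 (*Il2rb*) and -0.03 (*Il18r1*), and that of *Il15ra* was -0.19. Without the upper limits the log2 ratio of *Il12b* in migratory DC-like cells was 0.00, its shares there were 94.0% (control) and 84.7% (NK cell-depleted), the depleted *Il15ra* share in monocyte/macrophage-like cells was 68.3% and the *Il2rb* share in NK-like cells 83.9%. Without the 5 cells richest in the gene the *Il12b* ratio was -0.15, with shares of 65.2% and 89.7%. Calling each cell by its own markers gave a log2 ratio of 0.21 for *Il15* in monocyte/macrophage-like cells, and shares in that class, control then depleted, of 56.0% and 53.7% for *Ebi3*, 59.0% and 50.5% for *Il15*, 45.5% and 55.5% for *Il15ra*, 63.7% and 61.9% for *Il18*, and 64.2% and 61.1% for *Il27*. It gave 97.6% for control *Il12b* in migratory DC-like and 87.0% for *Il2rb* in NK-like cells. The stricter filter (at least 1500 UMIs, at most 5% mitochondrial) gave log2 ratios in T-like cells of 1.70 (*Il18r1*) and 0.48 (*Il2rb*), monocyte/macrophage-like shares of 90.6% and 84.8% (*Ebi3*), 90.3% and 89.5% (*Il15*), and 95.9% and 91.3% (*Il18*), and NK-like shares of 67.9% (*Il18r1*) and 87.2% (*Il2rb*). Thinning to 2000 UMIs gave monocyte/macrophage-like shares of 86.4% and 78.3% (*Ebi3*), 90.4% and 93.4% (*Il15*) and, depleted, 100% (*Il27*), and an NK-like *Il2rb* share of 88.1%. That *Il2rb* share was 91.1% without cells of a second lineage, 90.2% without the top Scrublet scores and 89.4% without the mixed cluster. Counting genes from 50 UMIs gave 596 in place of 975 genes at least 1.5-fold higher in control monocyte/macrophage-like cells. Leaving out 2 macrophage clusters with few markers, those led by *Slc7a2* and *Retnla*, gave shares of 72.1% and 68.0% (*Ebi3*), 71.0% and 69.6% (*Il15*), 85.7% and 82.0% (*Il18*) and, depleted, 70.0% (*Il15ra*) and 81.9% (*Il27*). The equal weights and the 2 settings that leave out clusters were chosen after seeing the data. The causes were not tested.

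Depth limits the rare genes: *Il12a* with 10 UMIs gives no share worth comparing, and a class of 50 cells allows up to 6.00% of cells with a UMI when none is seen. With 1 library per group, the spread between tumors or libraries is unknown for every value.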

Other observations

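Cells outside the limits on depth and mitochondrial share held further UMIs of the set. Above the upper limits, 212 control and 353 NK cell-depleted cells held 93 and 24 *Il12b* UMIs, each from 1 cell, of which the control cell was migratory DC-like and the other monocyte/macrophage-like. They also held 62 and 1 *Il2rb* UMIs, 38 and 34 *Il18* UMIs and 16 and 46 *Il15ra* UMIs. Above the mitochondrial limit, 446 and 476 cells held 93 and 15 *Il2rb* UMIs and 53 and 23 *Il18r1* UMIs.

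Transcripts of other receptor chains and of a signal transducer were found in DC-like cells. *Il2ra*, which makes the IL-2 receptor one of high affinity, had 77 and 69 UMIs in migratory DC-like cells (221 CPM, 175 to 277, and 247 CPM, 192 to 313), seen in 28 of 60 and 21 of 50 cells, while *Il2rb* did not reach 3 UMIs there in either library. *Stat4* had 65 and 56 UMIs in the same class (187 CPM, 144 to 238, and 201 CPM, 152 to 260), close to the 212 CPM (188 to 238) of control NK-like cells. *Il2ra* was also found in ILC2-like cells, with 37 and 71 UMIs (506 and 758 CPM). *Il23r*, the specific chain of the IL-23 receptor, had 10 of its 13 control UMIs and all 8 NK cell-depleted UMIs in γδ T-like cells, the class in which *Il18r1* was highest.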
